A study of Mus musculus with 55 samples.

Results

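The genes described here encode the proteins of the cytosolic ribosome. They are the protein-coding mouse genes whose symbols begin with Rpl or Rps followed by a digit, together with Rpsa, Rplp0, Rplp1 and Rplp2, and kinases of the Rps6k family and pseudogene symbols were left out. Of 86 genes with such symbols among the 45318 identifiers in the count tables, 81 had a level of at least 1 CPM (counts scaled to the library total) in at least 7 of 54 mice and are called members below. By symbol, 47 belong to the large subunit and 32 to the small subunit, while Rpl7l1 and Rps19bp1 carry such symbols without being part of the finished ribosome. The rule used the level of each gene and no difference between groups. Rpl10l, Rpl39l and Rpl3l, copies known from testis or muscle, were among the 5 genes below it.

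RNA of the ventral dentate gyrus was sequenced from single male C57BL/6J mice. Mice were assigned at postnatal day 21 to standard housing (SH) or an enriched environment (EE) for 8 weeks, and some then underwent 10 days of chronic social defeat stress (CSDS), in which a larger CD1 mouse attacks the test mouse. Defeated mice were classified by their social interaction ratio as resilient (RES) or susceptible (SUS), and tissue was taken at postnatal day 90. Under SH there were 10 control mice, which were not defeated, besides 7 RES and 10 SUS mice, and under EE each of these groups had 9 mice. No group carried a transgene, and RES and SUS mice differ by a behavioral threshold and not by treatment.

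The ribosome is built of a large and a small subunit, each an RNA core dressed with ribosomal proteins, of which a cell needs about equal numbers of copies. In mammals the mRNAs of these proteins begin with a run of pyrimidines, the TOP tract, through which their translation is placed under the control of the kinase mTOR. Neurons use ribosomes in the cell body and in dendrites, and the growth of new synapses draws on local protein synthesis.

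The start of transcription of the members is shown for 7 members described below, since the TOP tract lies there. Each window runs 5′ to 3′ over 30 bases of RefSeq sequence of build GRCm38.p6, with 20 bases before the annotated start and 10 from it on. Capitals mark a run of at least 7 pyrimidines between 5 bases before and 10 bases after the start, and windows all in lower case have no such run.
Rpl15, chr14:18270977-18271006, minus strand: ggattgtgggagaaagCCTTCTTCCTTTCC
Rps6, chr4:86857358-86857387, minus strand: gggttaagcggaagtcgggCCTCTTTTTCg
Rplp2, chr7:141447631-141447660, plus strand: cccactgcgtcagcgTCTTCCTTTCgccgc
Rpl22l1, chr3:28805488-28805517, plus strand: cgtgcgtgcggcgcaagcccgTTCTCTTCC
Rps2, chr17:24720043-24720072, plus strand: tgcgtaggcagtcgagatctcgcgcttctt
Rpl22, chr4:152325706-152325735, plus strand: ccgacttcgccctgggaaaagcaatagctg
Rps16, chr7:28350669-28350698, plus strand: taaagcccgcttctgtcgtgacgtagcact

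Such a run was present at 24 of the 72 start sites annotated for the 61 members that matched the table, 33.3%, and at 7.45% of all 32851 start sites. The shorter word CGGAAG, read on either strand, the core bound by ETS factors, occurred in 62.5% of the members' windows from 250 bases before to 50 bases after the start and in 16.9% of all windows of that length. CTTTCC on either strand occurred in 50% of the members' windows and in 26.6% of all, and the TATA word TATAAA in 9.72% and 13.6%. CTTTCC can lie within a pyrimidine run, as it does in the Rpl15 window printed above. Several start sites belong to 1 gene, so these shares are over sites and not over genes, and an annotated start may differ from the one used in this tissue.

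All members were well covered. Between 16760009 and 45872357 read pairs were counted on genes per mouse (median 21552884), the highest being an EE control mouse with 2 samples, summed here. The titles of these samples differ by the suffix -rep and do not say whether it marks a new run or a new library. At this depth the counting error of a member was 1.74% at the median and 6.94% for the weakest one. Of the dentate granule cell markers, Prox1 was at 141.3 CPM and C1ql2 at 107 CPM on average, so the labelled tissue carries its defining genes, and astrocyte, oligodendrocyte, microglia and hippocampal pyramidal cell markers were present as well. Markers listed for thalamus and choroid plexus were also detected and varied widely between mice. The summed level of the thalamus list ran from 104 to 736 CPM in EE RES mice. That of the choroid plexus list ran from 22.1 to 1013 CPM in SH control mice. The values below come from whole tissue, in which fewer cells of a type and less RNA per cell cannot be told apart.

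Levels of different members were compared per kilobase of transcript, as CPM scaled by the TMM method and divided by the transcript length. Rplp1, a protein of the flexible stalk that recruits elongation factors, was highest at 622 CPM per kb, followed by Rps29 at 490 and Rpl3, a core protein near the peptidyl transferase center, at 431. At the other end were Rps19bp1 at 14.2, Rpl7l1 at 17.6 and Rps27l at 19, none of which is a standard subunit gene. The median was 186 CPM per kb over large-subunit members and 231 over small-subunit members. Rps15a at 28.5 and Rps20 at 34.1 CPM per kb were also low, but their annotated transcripts are 5130 and 3706 bases long, far longer than those of other members, and their CPM of 146 and 126 lay near the median member at 150.9.

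**Figure D1:**
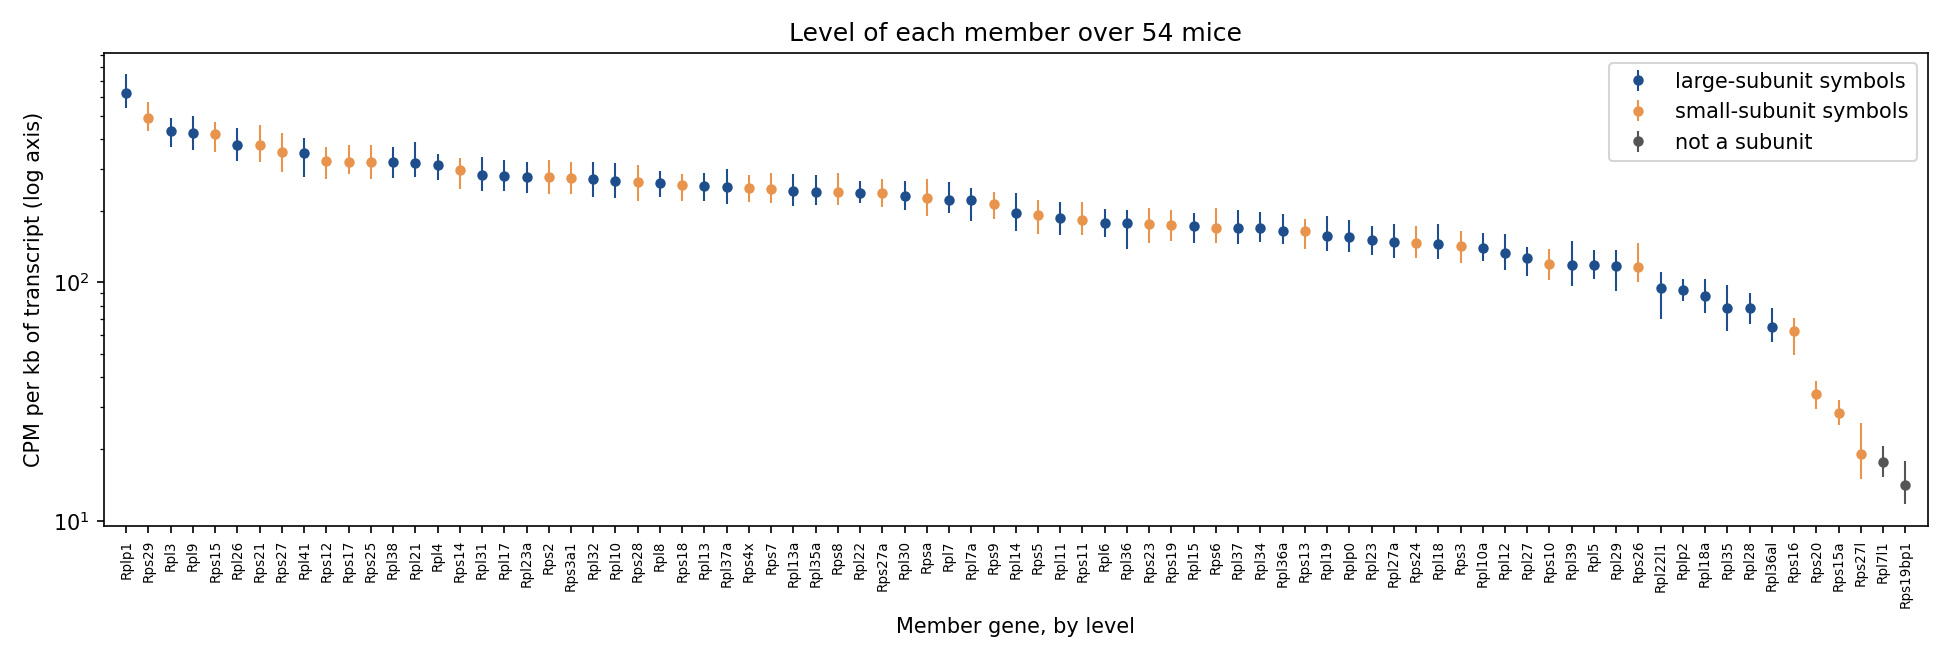
Mean level of the 81 members in CPM per kb of transcript on a log axis, ordered from highest to lowest, with lines from the lowest to the highest of 54 mice. Points are colored by subunit. Rplp1 stands at the top with 622 CPM per kb and Rps19bp1 at the bottom with 14.2, and the span over mice is small beside the span between genes.

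Several symbols name a near copy of a standard subunit gene, and in each pair the copy was the lower one. Per kb of transcript, Rps27l, a copy known as a p53 target, was at 19 CPM and Rps27 at 354. Rpl22l1, whose mRNA is known to be repressed by the Rpl22 protein, was at 94.8 and Rpl22 at 237. Rpl36al was at 65.4 and its X-linked partner Rpl36a at 164. Rpl7l1, which acts in assembly of the large subunit, was at 17.6 and Rpl7 at 222, and Rps19bp1, a binding partner of Rps19, was at 14.2 beside 174 for Rps19. Below the rule of 1 CPM in 7 mice lay Rpl24 (mean 0.519 CPM, 2 mice), Rps27rt (0.355), Rpl3l (0.129), Rpl39l (0.0427) and Rpl10l (0), while the weakest members were Rps27l at 9.49 and Rps19bp1 at 11.9 CPM. Rpl24 encodes a standard subunit, and 71.5% of its exonic bases lie inside another annotated gene on the same strand, Gm28037, where read pairs count as ambiguous. The part of this overlap in the low level of Rpl24 was not tested. Overlap with other genes covers 59.3% of Rpl13a (Gm45713 and Mir5121) and 10.7% of Rpl19 (Gm27597), whose levels of 253 and 118 CPM are minimum estimates.

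Rack1, a scaffold protein of the small subunit, and Fau, which encodes eS30 fused to a ubiquitin-like protein, fall outside the symbol rule and were read beside the members. Rack1 had 204 CPM and Fau had 111 CPM.

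The members took 1.34% of all counts on genes (SD 0.0817, 54 mice), and the groups overlapped throughout. In SH, the lowest, median and highest mice had 1.26%, 1.35% and 1.53% in controls, 1.25%, 1.36% and 1.49% in RES mice and 1.25%, 1.33% and 1.4% in SUS mice. In EE, the same values were 1.25%, 1.34% and 1.42% in controls, 1.17%, 1.35% and 1.53% in RES mice and 1.18%, 1.32% and 1.45% in SUS mice. EE RES mice had the widest spread, with an SD of 0.13 percentage points around a mean of 1.34%, and EE RES mouse 8 and SH control mouse 7 marked the ends of the whole range. Group means lay between 1.32% and 1.36%, closer together than the SD of any group. No test was run on the share, which moves with every other gene in a library.

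Counts of large-subunit members were 1.51 times those of small-subunit members (SD 0.0125, 54 mice), and this ratio never left the range from 1.48 to 1.54. Group means ran from 1.507 in EE SUS mice to 1.52 in SH control mice. The counts of both subunits thus moved together from mouse to mouse.

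**Figure D2:**
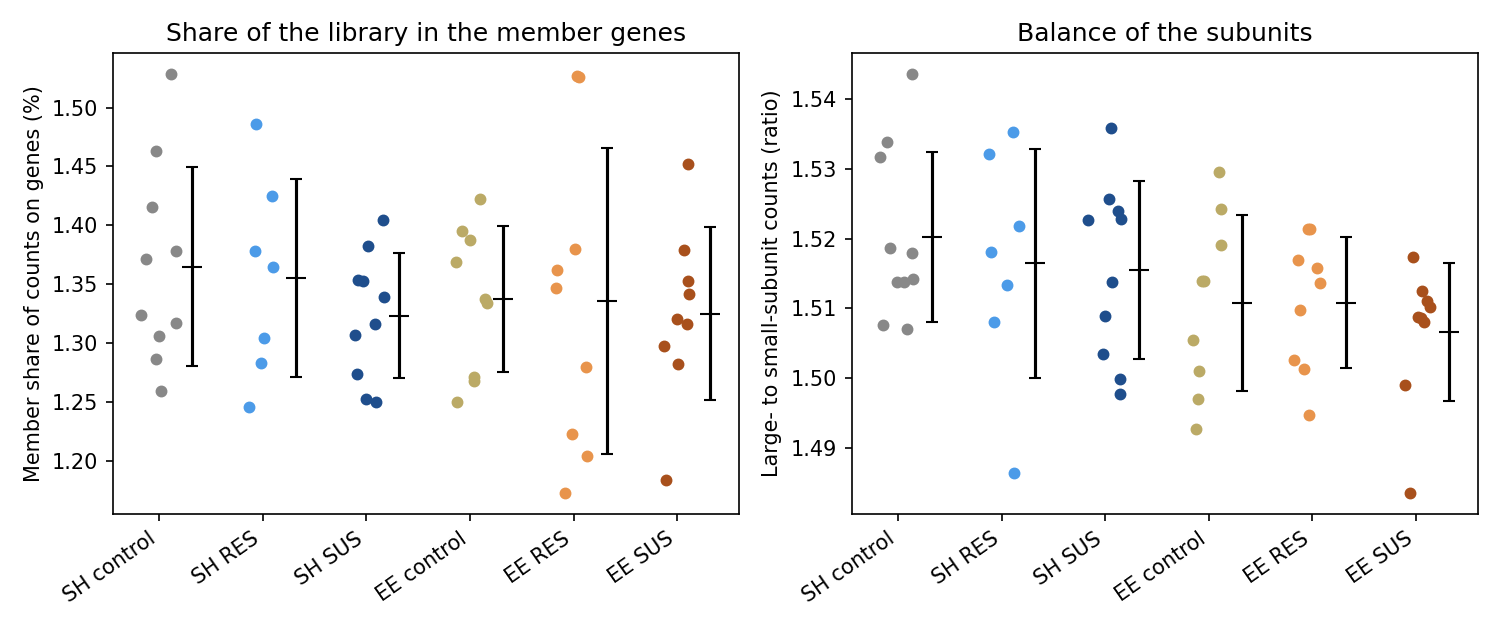
Left, share of counts on genes that fell on the 81 members, in percent. Right, ratio of counts on large-subunit to counts on small-subunit members. Each point is a mouse, and the bar beside it is the mean with 1 SD. Groups overlap in both panels, with shares between 1.17% and 1.53% and ratios between 1.48 and 1.54.

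Single members varied little between mice. The coefficient of variation over 54 mice was 6.82% at the median and under 10% for 80 members, and it ran from 5.09% for Rplp2, a stalk protein, to 10.6% for Rps27l. Group means of a member differed by 4.12% at the median, from the lowest to the highest of the 6 groups, and by 11.1% at most, in Rps27l. On the log2 scale the spread within groups was 0.10 at the median over members and 0.161 over all 18283 genes tested. The highest group mean was that of SH control mice for 39 members and of SH RES mice for 21, and the lowest was that of SH SUS mice for 28.

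Members moved together. Over the residuals of 54 mice from their group means, the mean correlation between 2 members was 0.72, and 80 members had a correlation above 0.5 with the mean of the other members (median 0.873, highest 0.958 for Rps3). Rps16 was the exception, at 0.202, and Rplp2 was next at 0.54. These mice share a library depth and scaling for all members, and the values describe how the genes vary and test nothing. Because of this co-variation, counts of members above or below 0 in a comparison are not counts of independent genes.

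Differences between the 6 groups were tested with edgeR's quasi-likelihood test over the 18283 genes that passed its low-count filter, with Benjamini-Hochberg adjustment over all of them and a call at an adjusted p below 0.05. All 81 members passed that filter. For any difference among the 6 groups 0 members were called (0.35% of all genes were), and 1 member, Rpl3, had an unadjusted p below 0.05, beside 11.1% of all genes. DESeq2 and limma-voom called 0 members as well, with 2 and 1 at an unadjusted p below 0.05. Rpl3 (chromosome 15, 80077791 to 80091868 of GRCm38) had the smallest p of 0.028 (adjusted p = 0.37 from edgeR). Its lowest, median and highest values were 575, 601 and 657 CPM in SH control, 563, 586 and 644 in SH RES and 544, 581 and 644 in SH SUS mice. They were 525, 578 and 627 CPM in EE control, 508, 565 and 634 in EE RES and 498, 580 and 596 in EE SUS mice. Rpl3 had the highest mean of the 6 groups in SH control mice and the lowest in EE RES mice, with all groups overlapping.

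Defeat was compared with control mice in each housing. In SH SUS mice against SH control mice 0 members were called (0.0328% of all genes), and 0 had an unadjusted p below 0.05 by edgeR, limma or DESeq2, beside 2.78% of all genes by edgeR. The median log2 fold change of the members was -0.041, with 79 of 81 below 0, and over all genes it was -0.00035. The smallest p belonged to Rpl22l1, with lowest, median and highest values of 46.7, 54.1 and 61 CPM in SH control and 38.8, 51.6 and 57.2 CPM in SH SUS mice, a log2 fold change of -0.11 (95% interval -0.22 to 0.0033, adjusted p = 1 from edgeR). Its groups overlapped, 3 of 10 SUS mice lying below every control. Rpl36 (log2 fold change -0.078) and Rplp0, the base of the stalk (-0.079), came next, also without a call, and Rps16 was the highest member at 0.081. Rps6, the small-subunit protein that S6 kinase phosphorylates downstream of mTOR, was at 138, 151 and 172 CPM in SH control and 142.5, 147 and 169.6 CPM in SH SUS mice, a log2 fold change of 0.00087 (95% interval -0.088 to 0.09). Blood cell genes moved in the same comparison, all 5 listed hemoglobin and heme genes being called higher in SH SUS mice, and their summed level ran from 52.2 to 107 CPM in SH control and from 68.5 to 419 CPM in SH SUS mice. Their part in the members' values was not tested, and within groups the correlation of the 2 lists was -0.033 over 54 mice.

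In SH RES against SH control mice 0 members were called (0% of all genes), with 0 at an unadjusted p below 0.05 by edgeR, by limma and by DESeq2, beside 3.51% of all genes by edgeR. The median member was at -0.0079 and 24 of 81 were above 0. Rps16 was 55.3, 66.9 and 74.6 CPM in SH control and 64.3, 71.2 and 74.5 CPM in SH RES mice, a log2 fold change of 0.075 (95% interval -0.036 to 0.19). No SH RES mouse lay outside the range of controls for Rps16. Rps19bp1 was at -0.083 and Rplp2 at -0.049, and neither was called.

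In EE SUS against EE control mice 0 members were called (0% of all genes), and 0 passed an unadjusted p of 0.05 by any of the 3 tools, beside 7.9% of all genes by edgeR. The median member was at -0.0016, with 39 above 0 and 42 below. Rps27l was highest, with 8.05, 9.27 and 11 CPM in EE control and 8.83, 9.62 and 12.8 CPM in EE SUS mice, a log2 fold change of 0.11 (95% interval -0.035 to 0.25). EE SUS mouse 8 was the lowest mouse of its group for 73 members and the lowest of all mice for 40. Without it the median became 0.023 with 69 members above 0, still with 0 called. With scores of choroid plexus and thalamus markers as covariates the member median was 0.055, with 79 members above 0. With the percent of read pairs on no gene as a covariate it was -0.032, with 5 above 0. All 8 listed thalamus markers were above 0 in this comparison without a call, with a median of 1.24 and 8 at an unadjusted p below 0.05. Their part in the members' values was not tested.

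In EE RES against EE control mice 0 members were called (0% of all genes), again with 0 at an unadjusted p below 0.05 by the 3 tools, beside 7.91% of all genes by edgeR. The median member was at 0.0035. Rpl4, a protein that lines the exit tunnel, had the smallest p, with 438, 479 and 522 CPM in EE control and 415, 458 and 506 CPM in EE RES mice, a log2 fold change of -0.057 (95% interval -0.13 to 0.013). For Rpl4, 2 of 9 RES mice lay below every control. These comparisons share their control mice by housing, so their values are given side by side only.

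SUS and RES mice were compared within each housing. In SH 0 members were called (0% of all genes), with 0 at an unadjusted p below 0.05 by the 3 tools, beside 4.88% of all genes by edgeR. The median was -0.03, with 68 of 81 below 0. Rpl22l1 was at -0.11 (95% interval -0.23 to 0.013), and Rpl10, a late-joining protein of the large subunit, at -0.087. In EE 0 members were called (0% of all genes), with 0 at an unadjusted p below 0.05 by the 3 tools, beside 3.52% of all genes by edgeR, and the median was -0.0011. Rpl29 came first there, at 67.3, 77.4 and 86.4 CPM in EE RES and 65.2, 86.7 and 89.1 CPM in EE SUS mice, a log2 fold change of 0.092 (95% interval -0.011 to 0.2). Of the SUS mice 5 of 9 lay above every RES mouse and 1, mouse 8, below all of them.

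Housing was compared at each stress state. In EE control against SH control mice 0 members were called (0.00547% of all genes), and 1 member had an unadjusted p below 0.05, 1.23% of members beside 5.02% of all genes. The median was -0.035 and 73 of 81 members were below 0. The member was Rpl22, which binds RNA outside the catalytic core, with 108, 116 and 126 CPM in SH control and 104, 109 and 121 CPM in EE control mice, a log2 fold change of -0.072 (95% interval -0.14 to -0.0055, adjusted p = 0.965 from edgeR). For Rpl22, 3 of 9 EE control mice lay below every SH control mouse. Rpl3 was at -0.076 and Rpl36 at -0.073, while Rps16 was the highest at 0.088.

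The largest number of members below an unadjusted p of 0.05 occurred between EE RES and SH RES mice, where 0 members were called (0.273% of all genes). There were 5 such members, 6.17% of them, beside 16% of all genes. The median member was at -0.021 and 55 of 81 were below 0. Rps2 (chromosome 17, 24718116 to 24721929), which lines the mRNA entry channel of the small subunit, came first. It was at 249, 289 and 326 CPM in SH RES and at 246, 256 and 297 CPM in EE RES mice, a log2 fold change of -0.13 (95% interval -0.22 to -0.037, adjusted p = 0.148 from edgeR). For Rps2, 2 of 9 EE RES mice lay below every SH RES mouse and the groups otherwise overlapped.

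The other 4 belong to the large subunit. Rpl15 (chromosome 14, 18267823 to 18271391) was at 137, 142.5 and 155 CPM in SH RES and at 125, 132 and 154 CPM in EE RES mice, a log2 fold change of -0.095 (95% interval -0.17 to -0.015), and 6 of 9 EE RES mice lay below every SH RES mouse. Rpl29 was at 79, 85.7 and 92.3 CPM in SH RES and at 67.3, 77.4 and 86.4 CPM in EE RES mice, a log2 fold change of -0.13 (95% interval -0.24 to -0.022). Rpl3 was at -0.098 (95% interval -0.18 to -0.015) and Rpl4 at -0.081 (95% interval -0.16 to -0.006). DESeq2 and limma-voom also had 5 members at an unadjusted p below 0.05 here. All 5 edgeR members had negative values, and none was past the adjusted threshold, the smallest adjusted p from edgeR being 0.148. With the percent of read pairs on no gene as a covariate 21 of 81 members had an unadjusted p below 0.05 in this comparison, beside 2538 of all 18283 genes. In that fit 0 members and 5 genes were called, and the members had a median of -0.063 with 3 above 0. With choroid plexus and thalamus marker scores as covariates the median was -0.0077, with 32 above 0.

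Markers of several cell types differed in level between the same groups without a call. All 8 dentate granule cell markers were below 0, with a median log2 fold change of -0.28 and 5 at an unadjusted p below 0.05, and their summed level ran from 973 to 1101 CPM in SH RES and from 664 to 1014 CPM in EE RES mice. All 6 oligodendrocyte markers were above 0, with a median of 0.38 and 5 at an unadjusted p below 0.05, and their summed level ran from 987 to 1270 CPM in SH RES and from 1182 to 1910 CPM in EE RES mice. Of 7 CA3 pyramidal cell markers 6 were above 0 (median 0.27, 4 at an unadjusted p below 0.05), as were 6 of 7 CA1 markers (median 0.34, 2 at that p). So were all 8 thalamus (median 0.30, 0 at that p), 7 of 8 choroid plexus (0.72, 1) and all 5 endothelial markers (0.12, 1). Prkcd is on both the CA3 and the thalamus list. All 5 blood cell genes were below 0 (median -0.18, 0 at that p), and the astrocyte and microglia lists went both ways. The part of these cell types in the members' values was not tested. Within groups the correlation with the members over 54 mice was -0.039 for the granule cell list and 0.019 for the oligodendrocyte list. It was 0.572 for microglia, 0.355 for astrocyte and -0.379 for thalamus markers. The CA1, CA3, choroid plexus, endothelial and blood lists lay between -0.21 and -0.033.

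In EE SUS against SH SUS mice 0 members were called (0.00547% of all genes), and 1 member, 1.23%, had an unadjusted p below 0.05 beside 7.36% of all genes. The median was 0.004 with 47 of 81 above 0. The member was Rps27l (chromosome 9, 66946086 to 66949516), at 7.5, 9.24 and 10.4 CPM in SH SUS and 8.83, 9.62 and 12.8 CPM in EE SUS mice, a log2 fold change of 0.15 (95% interval 0.015 to 0.29, adjusted p = 0.644 from edgeR). For Rps27l, 3 of 9 EE SUS mice lay above every SH SUS mouse. As the member with the fewest counts, it also had the largest counting error.

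Pooled over both housings, defeated mice were compared with controls, and 0 members were called (0.0438% of all genes), with 0 at an unadjusted p below 0.05 by the 3 tools, beside 4.81% of all genes by edgeR. The median was -0.011, with 69 of 81 members below 0, and the widest single value was -0.035, in Rpsa, the laminin receptor protein of the small subunit. The sign of this median depended on the covariates, since it was 0.0086 with 61 members above 0 with choroid plexus and thalamus scores and 0.0025 with 47 above 0 with the percent of multimapping pairs. The 5 blood cell genes were called higher in this comparison too. For the difference between housings in the response to defeat 0 members were called (0% of all genes), and 1 member, 1.23%, had an unadjusted p below 0.05 beside 6.47% of all genes. That member was Rps16, with a log2 value of -0.13 for the EE response minus the SH response (95% interval -0.26 to -0.0001, adjusted p = 0.756 from edgeR), while the median member was at 0.024 and 71 were above 0.

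The intervals bound what the main fit, which has no covariates, allows for 1 member in 1 comparison at a time. They are not adjusted for the number of members or comparisons. In 9 of the 11 comparisons the 95% interval of each of the 81 members lay within a 1.2-fold difference in either direction. In the other 2, EE SUS against SH SUS mice and the difference between housings in the response to defeat, 80 members did so, the exception being Rps27l each time. Within a 1.3-fold difference, the fold used by the study to name DEGs, lay all 81 members in all 11 comparisons. By the study's criterion of an unadjusted p below 0.05 from limma-voom and that fold, 0 members were called in each comparison. Against controls of the same housing it called 0.93% of all genes for SH SUS, 1.21% for SH RES, 1.94% for EE SUS and 1.17% for EE RES mice. It called 1.14% between SH SUS and SH RES and 1.1% between EE SUS and EE RES mice, and between EE and SH 1.12% in control, 3.24% in RES and 1.56% in SUS mice. Over both housings it called 0.481% for defeat and 1.68% for the difference between housings. DESeq2 and limma-voom at an adjusted p below 0.05 called 0 members in each of the 11 comparisons. The median standard error of a member was 0.0282 to 0.0565 on the log2 scale, so differences of a few percent could not be resolved.

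**Figure D3:**
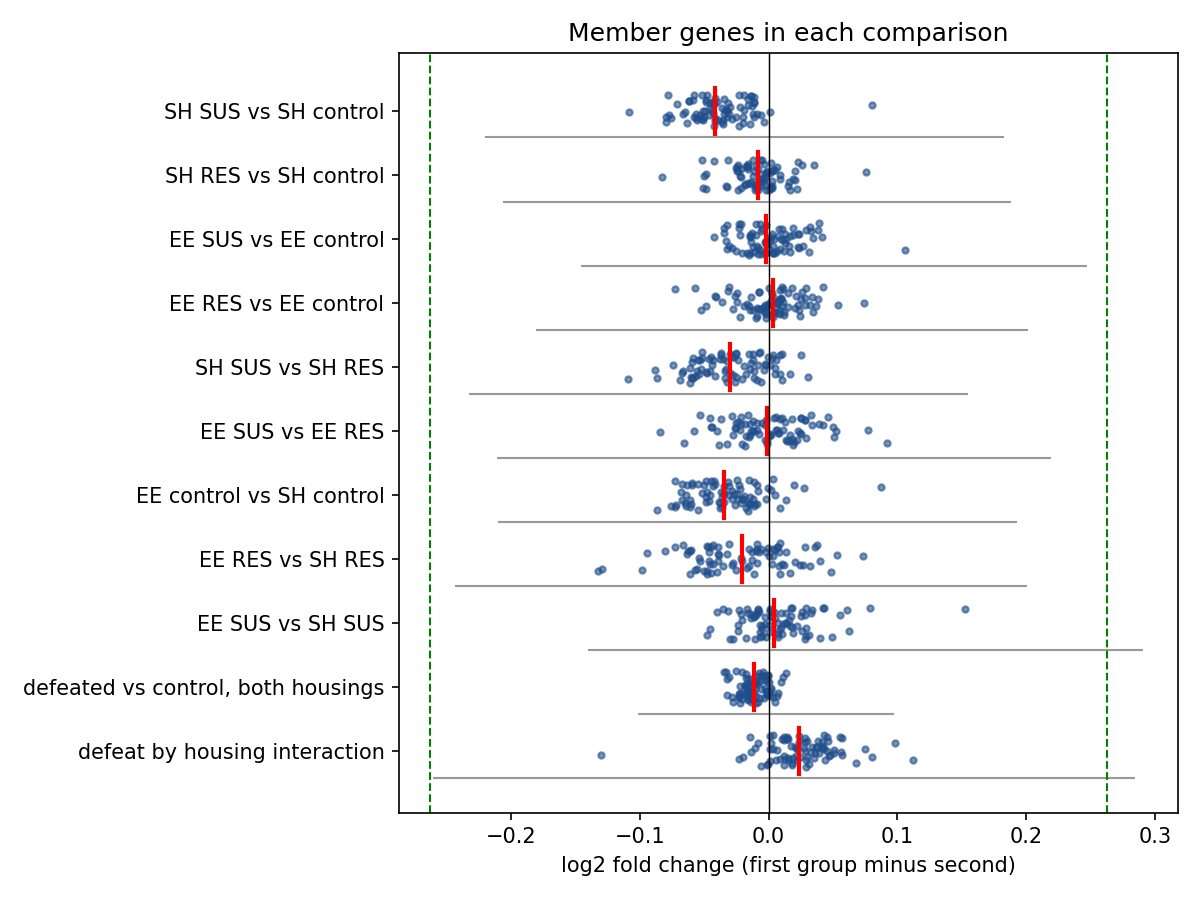
Log2 fold change of the 81 members (points) in 11 comparisons, with their median in red. Gray lines run from the lowest to the highest 95% bound of any member, and green dashed lines mark a 1.2-fold difference. The last row is the EE response to defeat minus the SH response. Medians lie between -0.041 and 0.024.

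The level of the members moved with 2 measures of the libraries. A mouse's member level, the mean deviation of log2 CPM over the members, had a Pearson correlation of 0.792 (Spearman 0.771) with the percent of read pairs that mapped to several places and -0.472 (Spearman -0.506) with the percent that fell on no gene, over 54 mice. Within groups these were 0.821 and -0.521, and without the 2 mice farthest from the median of each measure 0.734 and -0.587. These measures come from the same libraries, and reads shared between a ribosomal protein gene and its pseudogenes are themselves counted as multimapping. Multimapping pairs made up 8.7% to 12.1% of all pairs, with group means from 9.74% in SH SUS to 10.2% in EE control mice. Pairs on no gene made up 19.9% to 28.8%, with group means from 22.9% in EE RES to 24.7% in SH RES mice.

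**Figure D4:**
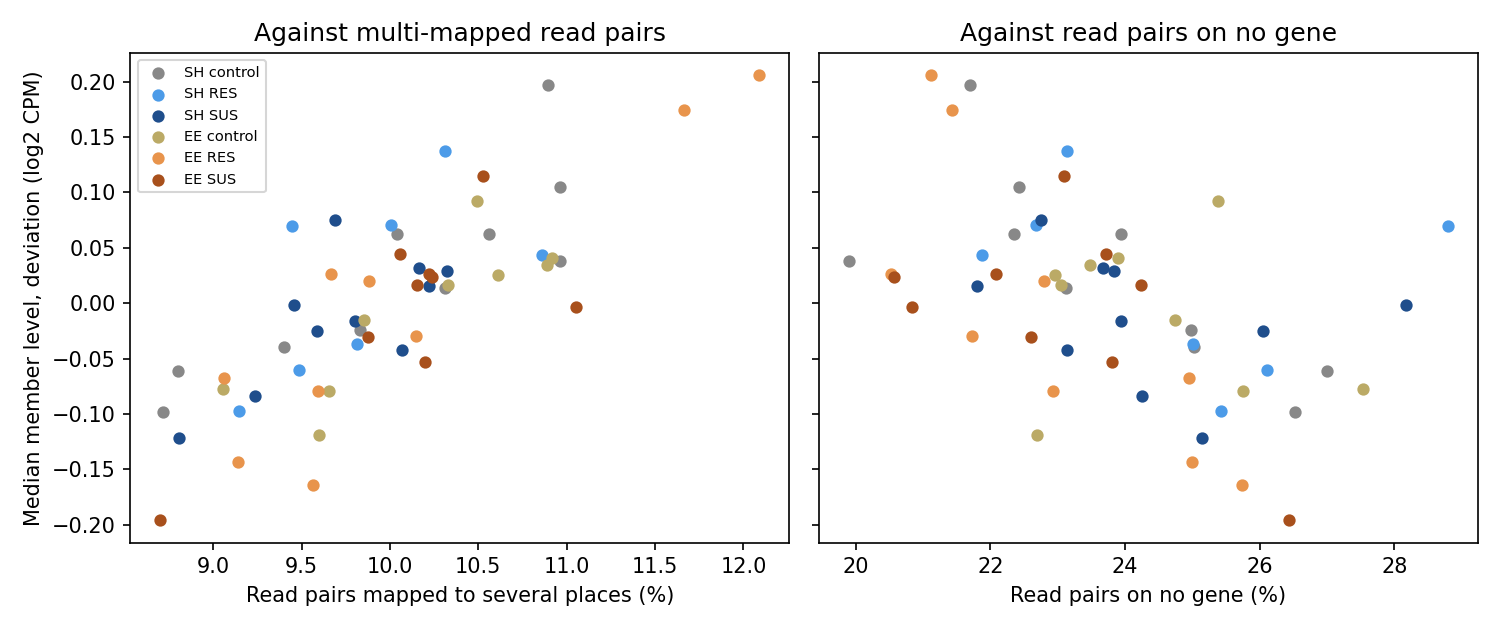
Member level of each mouse, plotted as the median deviation in log2 CPM over the 81 members where the correlations used the mean, against the percent of read pairs mapped to several places (left) and on no gene (right), colored by group. The plotted levels lie between -0.196 and 0.206, they are higher in mice with more multimapping pairs, and mice of all groups lie along the trend.

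With the percent of multimapping pairs as a covariate, an alternative chosen after this relation was seen, Rps2 was called between EE RES and SH RES mice at a log2 fold change of -0.15 (adjusted p = 0.0423 from edgeR, range 0.0423 to 0.384 over its alternatives). Rpl22 was called for any difference among the groups (adjusted p = 0.0467, range 0.0467 to 0.702). In this fit 77 of all 18283 genes were called between EE RES and SH RES mice and 106 for any difference among the groups. Between EE RES and SH RES mice 20 members had an unadjusted p below 0.05, beside 3158 of all genes, with a member median of -0.040. Between EE and SH control mice 16 members did, beside 1316 of all genes, with a member median of -0.042. In SH SUS mice the same fit gave a median of -0.012 with 28 members above 0 against SH control and -0.017 with 27 above 0 against SH RES mice. The sign of the member median depended on the covariate in several comparisons, among them EE SUS against EE control mice as given above. In EE RES against EE control mice it was -0.035 with 4 members above 0 with the percent of pairs on no gene. There it was 0.022 with 68 above 0 with choroid plexus and thalamus marker scores. In SH RES against SH control mice it was 0.017 with 71 above 0 with the percent of pairs on no gene. With the percent of pairs on no gene as a covariate the difference between housings in the response to defeat had a median of -0.032 with 6 members above 0, and with choroid plexus and thalamus marker scores as covariates it was 0.06 with 79 above 0. In SH SUS against SH control mice, SH SUS against SH RES mice and EE control against SH control mice the median was below 0 in each of 68 alternatives. Of these, 54 left out 1 mouse each, many of them mice of groups not compared.

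Reads assigned to entries named as pseudogenes of these genes, by a symbol with -ps, were few. Pseudogenes under other symbols were not looked for. The 267 entries with such a -ps symbol held 0.0146% to 0.0253% of counts per mouse. Relative to its gene, the count on these entries was largest for Rpl38, at 16.9%, followed by Rpl36 at 9.58%. Only pairs with a single place in the genome were counted, so the counts of the 57 members with such entries are minimum estimates. Those of the other members may be so too. Counts on the opposite strand made up at most 0.337% of the stranded counts of members, beside 4.13% at most over all genes.

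Other genes of the pathway were read from lists. Of 18 further mRNAs with a TOP tract, mostly translation factors such as Eef1a1 and Eef2, 0 of 18 were called in any of 11 comparisons, with list medians from -0.034 to 0.017. Their mean followed that of the members within groups at a correlation of 0.921 over 54 mice. Eif4b, which assists the helicase eIF4A, had the smallest p of the list, at -0.10 in EE against SH control mice (95% interval -0.16 to -0.043, adjusted p = 0.698 from edgeR).

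Of 31 tested ribosome biogenesis genes 0 were called, with medians from -0.057 in EE SUS against SH SUS mice to 0.016. In EE SUS against SH SUS mice 7 of 31 had an unadjusted p below 0.05, beside 7.36% of all genes, and 0.00547% of all genes were called. There 25 of the 31 were below 0 and 6 above. Summed over the 11 comparisons the list had 21 values at an unadjusted p below 0.05. The smallest p belonged to Nop58, a core protein of box C/D snoRNPs, at -0.13 in EE RES against SH RES mice (adjusted p = 0.116 from edgeR). Their mean correlated with that of the members at 0.596.

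Of 23 genes of mTOR signaling and translational control 0 were called. Sesn3, an inhibitor of mTORC1, was at -0.16 in EE RES against EE control mice (95% interval -0.26 to -0.07, adjusted p = 0.538 from edgeR), the smallest p of the list, and Myc, a driver of ribosome production, was at 0.29 in SH SUS against SH control mice with 2.02 CPM on average (adjusted p = 1). The mean of this list ran opposite to the members within groups, at a correlation of -0.716. Its genes hardly varied together, with a mean correlation between 2 of them of 0.064. The members' level also moved with measures of the libraries, and the part of these in the correlations of the lists was not tested.

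The protein genes of the mitochondrial ribosome and of the respiratory chain gave a comparison with other large complexes. Of 76 mitochondrial ribosomal protein genes 0 were called, with medians from -0.015 to 0.026, and of 87 nuclear respiratory chain genes 0 were called, with medians from -0.027 to 0.05. Their means correlated with that of the members at 0.795 and 0.739. Within groups the mean correlation between 2 genes was 0.316 in the first list and 0.53 in the second, beside 0.72 among the members. In SH SUS against SH control mice 39 of 87 respiratory chain genes were above 0, beside 2 of 81 members, and the difference between these lists was not tested.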

How the data were processed

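The deposited files hold unnormalized counts of read pairs for each gene, 1 table per library, in the layout of STAR gene counts with unstranded, forward-strand and reverse-strand columns. Per the labels, STAR and Picard and build mm10 were used, and the methods name featureCounts. Reverse-strand counts were used because the kit was stranded. Mouse 9 of the EE controls had 2 samples by their titles, 1 with the suffix -rep, and their counts were added. Rows that name no gene were left out of library sizes. Of 45318 identifiers 44671 matched GENCODE names of GRCm38.

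Counts were normalized by TMM and tested in edgeR 4.0.16 (R 4.3.3) with filterByExpr and a quasi-likelihood F-test over 6 groups, adjusted by the Benjamini-Hochberg method. DESeq2 1.42.0 and limma 3.58.1 were alternatives, beside other scaling, filters, strand, groups, covariates, a replicate block and each mouse left out. Intervals are 95%. The test was checked on simulated data. Figures and summaries used matplotlib 3.10.9, pandas 2.3.3, NumPy 2.4.6 and SciPy 1.17.1 in Python 3.11.15. Depth limits precision for weak members only, and counting errors cover counting alone.

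The members and gene lists were chosen with earlier results of these data known. Named genes were the 3 members with the smallest p per comparison, the extremes of level per kb and of variation, members near the 1 CPM limit, near copies with their partners, and per list the gene with the smallest p. Transcript length was that of the shortest principal coding transcript. Mice of a group are separate animals. No pair of mice agreed within sampling noise. A listed item is not reported here.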

Additional observations from a re-analysis of the deposited data

Results flagged for a closer look

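Among 54 groups of values examined, the member share and the members with the smallest p of each comparison in each of the 6 groups, 2 stood out because 1 mouse lay far from the rest of its group, and chance gives about 1 in 20. Both belonged to EE SUS mouse 8. It had 65.2 CPM of Rpl29, where the other 8 mice lay between 81.9 and 89.1 CPM, and 414 CPM of Rpl4, where the others lay between 454 and 492 CPM. This mouse had a member share of 1.18%, with 8.7% multimapping pairs and 26.4% of pairs on no gene.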

How the results depend on the processing

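Counts of members called were recomputed 824 times under 69 alternatives, and 822 were 0. The exceptions were 1 member for any difference among the groups and 1 between EE RES and SH RES mice, both with multimapping pairs as a covariate, an alternative chosen after seeing the data, and the cause was not tested. With each mouse left out the count stayed at 0 throughout. The gene lists had 0 called under the same alternatives. As a share of counts on protein-coding genes outside the mitochondrial genome, the members took 1.546% in SH control, 1.55% in SH RES, 1.5% in SH SUS, 1.52% in EE control, 1.51% in EE RES and 1.51% in EE SUS mice, a smaller denominator by construction. Of 2238 recomputed values of single genes 1 changed sign, Rps15a in EE SUS against EE control mice, at 0.0198 with choroid plexus and thalamus scores as covariates. The member median kept its sign in 3 of 11 comparisons.

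The median without 1 mouse ran from -0.027 to 0.013 in SH RES against SH control mice, from -0.014 to 0.023 in EE SUS against EE control mice, from -0.022 to 0.019 in EE RES against EE control mice, from -0.020 to 0.03 in EE SUS against EE RES mice, from -0.050 to 0.0018 in EE RES against SH RES mice, where it passed 0 without SH RES mouse 3 alone, and from -0.010 to 0.027 in EE SUS against SH SUS mice. It ran from -0.052 to -0.024 in SH SUS against SH control mice, from -0.051 to -0.011 in SH SUS against SH RES mice and from -0.047 to -0.013 in EE control against SH control mice, lowest in size without SH control mouse 7 in the first and the third of these and without SH RES mouse 3 in the second. It ran from -0.018 to -0.0021 for defeat over both housings and from 0.0058 to 0.038 for the difference between housings, nearest 0 without SH control mouse 7 in both. The replicate number as a block called 0 members, with a median of -0.040 in SH SUS against SH control mice and -0.015 in EE RES against SH RES mice, where it raised the genes called from 50 to 228. Same-numbered mice of different groups had a mean residual correlation of 0.03 over 126 pairs, beside -0.0035 for pairs of other numbers. Of 54 mice 9 were closest to a mouse of their own number. Whether the numbers mark a shared step of processing was not tested. For any difference among 6 groups the study's criterion has no fold change to apply, and its p alone, from limma-voom, was below 0.05 for 1 member and 1894 genes, a count left out of the 824. Depth limits Rps27l more than other members.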
